A study of Mus musculus with 6 samples.

Results

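The PGC-1 coactivators and the factors they work with were followed here as 9 genes, chosen by name. They were the coactivators Ppargc1a, Ppargc1b and Pprc1, the nuclear receptors Esrra and Esrrg, the transcription factors Nrf1, Gabpa and Gabpb1, and the corepressor Nrip1. Their Ensembl identifiers and GRCm38 chromosomes were Ppargc1a (ENSMUSG00000029167, chromosome 5), Ppargc1b (ENSMUSG00000033871, chromosome 18), Pprc1 (ENSMUSG00000055491, chromosome 19), Esrra (ENSMUSG00000024955, chromosome 19), Esrrg (ENSMUSG00000026610, chromosome 1), Nrf1 (ENSMUSG00000058440, chromosome 6), Gabpa (ENSMUSG00000008976, chromosome 16), Gabpb1 (ENSMUSG00000027361, chromosome 2) and Nrip1 (ENSMUSG00000048490, chromosome 16).

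All 9 had a row among the 37620 gene identifiers of the count files, and all 9 passed the filter on low counts that left 12068 genes for testing. The libraries came from mature brown fat, the heat-producing fat whose floating cells were collected after collagenase digestion, of mice on a C57BL/6 background at 6 weeks of age. Of the 6 libraries, 3 were labelled wild type and 3 were labelled knockout for Phospho1, a phosphatase of phosphocholine and phosphoethanolamine. Each library was a pool of 3 mice, so the spread between libraries is a spread between pools. How the knockout allele was made is not given in the sources used here.

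PGC-1 proteins do not bind DNA themselves. They dock on transcription factors and recruit enzymes that open chromatin, and in brown fat Ppargc1a is known as a cold- and cAMP-induced switch of mitochondrial and thermogenic genes. The estrogen-related receptors (Esrra, Esrrg), the nuclear respiratory factor Nrf1 and the GA-binding protein, an ETS-family factor built from the DNA-binding subunit Gabpa and the activating subunit Gabpb1, carry that activity to genes of oxidative metabolism. Nrip1, also called RIP140, acts on many of the same receptors as a corepressor.

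Promoter windows of 300 bases (250 before and 50 after the annotated start) were read from RefSeq tables on GRCm38.p6, where 8 of the 9 genes matched. The windows below are those of the coactivator with the most studied cAMP response and of the 2 subunits of GA-binding protein, because the values of these genes lay in different directions. Capitals mark matches, on either strand, to the searched motifs: GCGC followed by A, any letter and GCGC (NRF1), CCGGAAGT (the ETS site that GA-binding protein reads), TNAAGGTCA (estrogen-related receptors), TGACGTCA and its core TGACG (cAMP response element, the shorter contained in the longer) and AAGATGGC (YY1).
Ppargc1a, chr5:51567676-51567975, minus strand: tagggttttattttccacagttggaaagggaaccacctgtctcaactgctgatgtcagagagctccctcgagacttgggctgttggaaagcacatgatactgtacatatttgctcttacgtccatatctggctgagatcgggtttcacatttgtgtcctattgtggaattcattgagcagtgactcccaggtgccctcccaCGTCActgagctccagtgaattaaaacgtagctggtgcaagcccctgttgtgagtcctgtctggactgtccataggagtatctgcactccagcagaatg
Gabpa, chr16:84834874-84835173, plus strand: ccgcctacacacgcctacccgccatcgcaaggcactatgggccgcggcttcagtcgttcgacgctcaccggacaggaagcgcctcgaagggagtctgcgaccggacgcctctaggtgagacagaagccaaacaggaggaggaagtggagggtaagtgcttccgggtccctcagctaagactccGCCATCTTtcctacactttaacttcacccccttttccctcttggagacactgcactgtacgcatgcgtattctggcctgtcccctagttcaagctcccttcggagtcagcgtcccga
Gabpb1, chr2:126675543-126675842, minus strand: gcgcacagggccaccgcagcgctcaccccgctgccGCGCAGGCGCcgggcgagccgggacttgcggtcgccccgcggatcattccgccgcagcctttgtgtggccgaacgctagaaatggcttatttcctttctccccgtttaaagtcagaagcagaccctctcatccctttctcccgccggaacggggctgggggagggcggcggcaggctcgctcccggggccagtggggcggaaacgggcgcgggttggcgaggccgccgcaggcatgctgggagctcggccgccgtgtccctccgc
The Ppargc1a window held the TGACG core, on the opposite strand, from base -49 to base -45 relative to the start. This match was found in 20.8% of the 32851 windows of the table. Other start sites of Ppargc1a were not searched, and whether this window is the region known for the cAMP response was not checked. The Gabpa window held the YY1 letters on the opposite strand from -67 to -60 (2.75% of windows), and the Gabpb1 window held the NRF1 letters from -215 to -206 (4.6% of windows). A second Gabpb1 window, starting downstream, held the TGACG core. No other window of the 8 genes held any of the letters searched, which says only that these letters are not in these windows.

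Library totals ranged from 10576800 to 14239307 counts, of which genes of the mitochondrial genome took 39.1% to 56.5%. Phospho1 itself, the targeted gene, had 13, 5 and 5 counts in wild type 1, 2 and 3 against 18, 15 and 17 in knockout 1, 2 and 3. Its own counts thus show no loss of the transcript in the knockout-labelled libraries (log2 difference 1.53, SE 0.46, edgeR adjusted p = 0.0563). Because how the allele was made is not given, these counts could not check the label. The word "knockout" therefore names a label throughout. Markers of adipocytes were abundant in all libraries, and Ucp1, the uncoupling protein of brown fat, ranged from 2285 to 4873 CPM (the count rate on TMM-scaled library sizes). Levels in the knockout-labelled libraries moved with transcript length: across all tested genes the median log2 fold change went from 0.59 in the shortest length decile to -0.78 in the longest. The slope of each library's relative level on log2 transcript length was 0.306, -0.0255 and 0.300 in wild type 1, 2 and 3 and -0.238, -0.0932 and -0.249 in knockout 1, 2 and 3. Because the genes followed here include several long transcripts, each is given first as counted and then with offsets that take out length and GC.

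These genes did not move as a unit: Ppargc1a, Nrip1, Esrrg and Gabpa fell in the knockout-labelled libraries, and the other 5 did not pass the test and had log2 fold changes from 0.16 to 0.71. In numbers, 4 of the 9 genes were lower and 0 higher (edgeR quasi-likelihood test, adjusted p under 0.05), against 7.52% of all tested genes lower, 1.63% higher and 9.16% in either direction. At an unadjusted p under 0.05, 5 of the 9 passed (30.8% of all tested genes), and DESeq2 and limma-voom also called 4 lower and 0 higher. The groups did not overlap for the 4 lower genes and for Gabpb1, which was higher in every knockout-labelled library; of all tested genes, 19.6% did not overlap in the lower direction and 15.8% in the higher, 35.4% in all. Since the libraries are bulk RNA, fewer cells of a type and less RNA per cell cannot be told apart in any of these values.

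**Figure D1:**
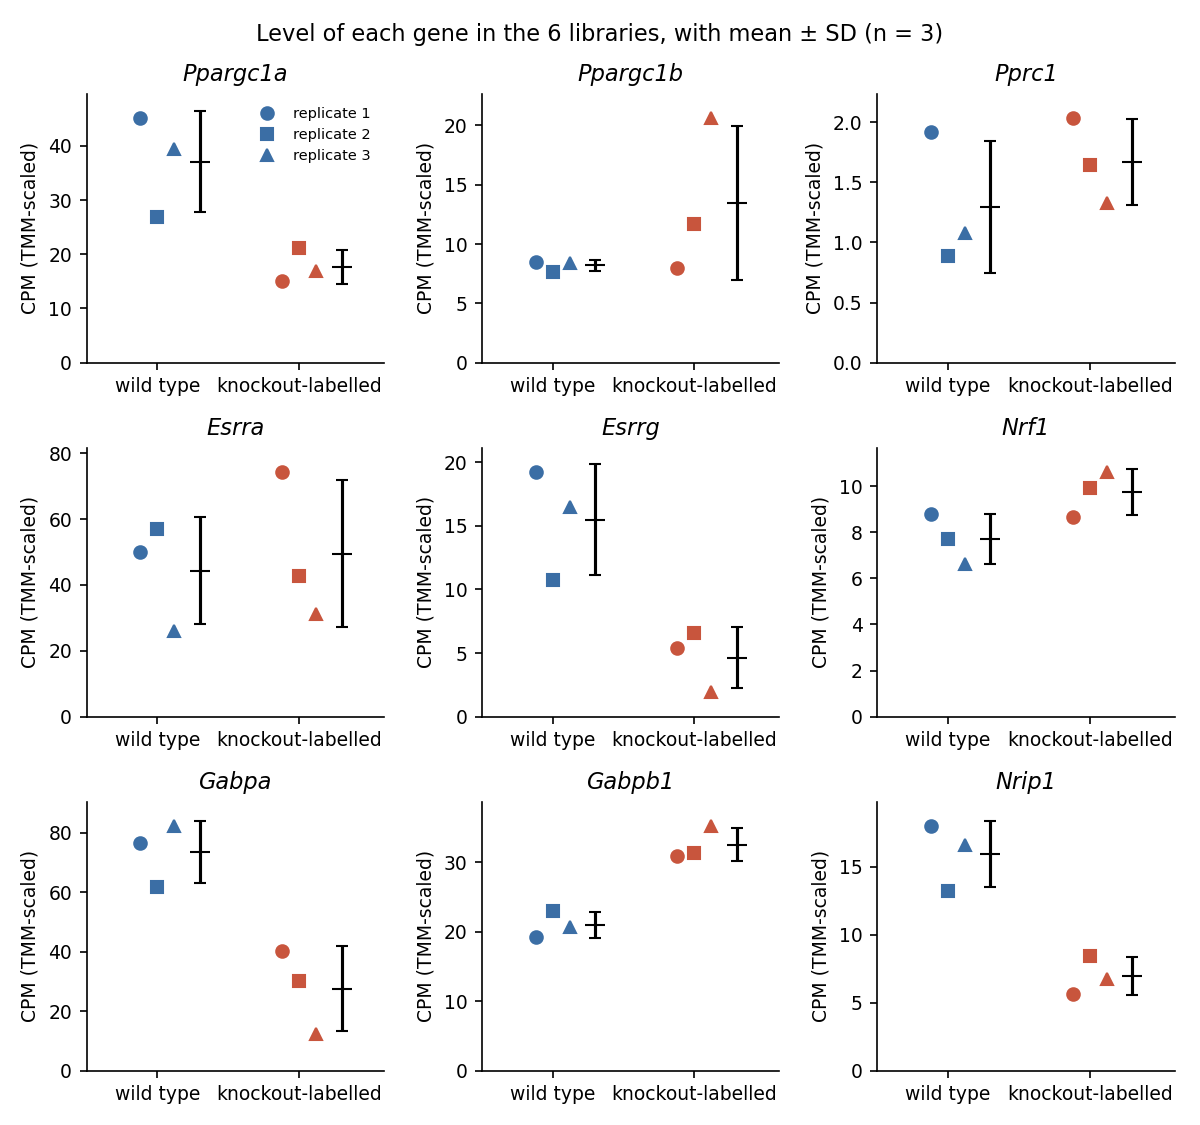
Level of each of the 9 genes in CPM (linear axes from 0) in the 3 wild-type libraries (blue) and the 3 knockout-labelled libraries (red), marker shape giving the replicate number and the black bar the mean ± SD. The groups are separate for Ppargc1a, Esrrg, Gabpa and Nrip1, all lower in the knockout-labelled libraries, and for Gabpb1, which is higher there.

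Among the coactivators, Ppargc1a stood at 45.2, 26.8 and 39.4 CPM in wild type 1, 2 and 3 and at 15.04, 21.2 and 16.8 CPM in knockout 1, 2 and 3. Every knockout-labelled library was below every wild-type library, and wild type 2 was the nearest to them. The means were 37.1 ± 9.4 and 17.7 ± 3.1 CPM (SD, n = 3 each), a difference of -1.07 in log2 level (SE 0.27, edgeR adjusted p = 0.0342), or 2.10 times lower. Its relative Ppargc1b, which shares the coactivator function and is best known for mitochondrial biogenesis and lipid synthesis programmes, had 8.51, 7.64 and 8.44 CPM in wild type and 7.96, 11.7 and 20.6 CPM in the knockout-labelled libraries. The groups overlapped, and knockout 3 alone lay far above the rest. The log2 fold change of Ppargc1b was 0.71 (SE 0.34, adjusted p = 0.174), and it was 0.26 without knockout 3. Pprc1, another family member, linked to serum-induced growth, had the fewest counts, 12 to 34 per library. Its CPM were 1.92, 0.887 and 1.08 in wild type and 2.03, 1.64 and 1.33 in the knockout-labelled libraries, with overlapping groups and a log2 difference of 0.35 (SE 0.42, edgeR adjusted p = 0.585).

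Nrip1, the corepressor, had 18.0, 13.2 and 16.6 CPM in wild type 1, 2 and 3 and 5.66, 8.45 and 6.74 CPM in knockout 1, 2 and 3. The groups did not overlap, with wild type 2 again the lowest of its group and knockout 2 the highest of its own, the same order within the groups as for Ppargc1a. The means were 15.9 ± 2.4 and 6.95 ± 1.41 CPM (SD, n = 3 each), a difference of -1.20 in log2 level (SE 0.27, edgeR adjusted p = 0.0252), or 2.29 times lower. Counts of Ppargc1a were 2.51, 2.02 and 2.37 times those of Nrip1 in wild type 1, 2 and 3. In knockout 1, 2 and 3 they were 2.64, 2.498 and 2.49 times those of Nrip1, so every library lay between 2.02 and 2.64. Both genes have long transcripts (6464 bases for Ppargc1a and 7868 for Nrip1), and levels moved with length. The log2 ratio of Nrip1 to Ppargc1a differed by -0.15 between groups, with overlapping values (exact two-sided permutation p = 0.3, Benjamini-Hochberg adjusted over 4 ratios 0.3). With 3 libraries a group this test cannot show that the proportion was kept.

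Of the estrogen-related receptors, Esrrg, which drives oxidative genes in tissues with high energy demand, had 19.2, 10.7 and 16.5 CPM in wild type 1, 2 and 3 and 5.40, 6.56 and 1.94 CPM in knockout 1, 2 and 3. The groups did not overlap, and knockout 3, with 19 counts, was the lowest. The means were 15.5 ± 4.3 and 4.63 ± 2.40 CPM (SD, n = 3 each), a difference of -1.73 in log2 level (SE 0.40, edgeR adjusted p = 0.0281), or 3.32 times lower. Esrra, the receptor that pairs with Ppargc1a in mitochondrial biogenesis, had 49.9, 57.1 and 26.1 CPM in wild type and 74.3, 42.7 and 31.2 CPM in the knockout-labelled libraries. Its groups overlapped throughout, and the libraries labelled replicate 3 were the lowest of each group. The log2 fold change of Esrra was 0.16 (SE 0.35, adjusted p = 0.783), and its sign turned with several other settings, among them the omission of wild type 3 (-0.14) or knockout 1 (-0.26). Counts of Esrra were 2.59, 5.31 and 1.58 times those of Esrrg in wild type 1, 2 and 3 and 13.7, 6.48 and 15.7 times in knockout 1, 2 and 3. The log2 ratio of Esrrg to Esrra was -1.48 ± 0.88 in wild type (SD, n = 3 in each group). It was -3.48 ± 0.69 in the knockout-labelled libraries. The two-sided exact permutation p was 0.1, the lowest value possible with 3 libraries a group (adjusted over 4 ratios 0.133). The longest transcripts have 5373 bases for Esrrg and 2489 for Esrra, and levels moved with length. With the length and GC trend taken out, the groups overlapped in this ratio, with a difference of -1.11 (two-sided exact permutation p = 0.2).

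Nrf1, Gabpa and Gabpb1 did not move together either. Gabpa, the ETS-domain subunit of GA-binding protein, had 76.5, 61.8 and 82.3 CPM in wild type 1, 2 and 3 and 40.3, 30.2 and 12.3 CPM in knockout 1, 2 and 3. The groups did not overlap, and knockout 3 was the lowest, as for Esrrg. The means were 73.5 ± 10.5 and 27.6 ± 14.2 CPM (SD, n = 3 each), a difference of -1.41 in log2 level (SE 0.36, edgeR adjusted p = 0.0361), or 2.66 times lower. In GRCm38, 6.98% of the exonic bases of Gabpa also lie in exons of Atp5j, an ATP synthase subunit on the opposite strand, and the strand setting of the counting is not given in the sources used here. Atp5j had 107, 147 and 116 CPM in wild type and 169, 136 and 145 CPM in the knockout-labelled libraries, with a log2 difference of 0.28 (SE 0.23, edgeR adjusted p = 0.404).

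Gabpb1, the partner subunit that carries the activation and nuclear import functions, had 19.3, 22.9 and 20.6 CPM in wild type and 31.0, 31.3 and 35.2 CPM in the knockout-labelled libraries. Every knockout-labelled library was above every wild-type library, with means of 21.0 ± 1.8 and 32.5 ± 2.4 CPM (SD, n = 3 each). This difference of 0.63 in log2 level (SE 0.22) missed the threshold, at an edgeR adjusted p = 0.0882. Nrf1, the nuclear respiratory factor, had 8.80, 7.71 and 6.64 CPM in wild type and 8.67, 9.93 and 10.6 CPM in the knockout-labelled libraries, overlapping groups with a log2 difference of 0.33 (SE 0.26, edgeR adjusted p = 0.394). No near-identical copy or overlapping gene covered more than 6.00% of the longest transcript or 6.98% of the exonic bases of any of the 9 genes.

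Ratios within a library do not depend on how libraries are scaled. Counts of Gabpa were 3.96, 2.69 and 3.98 times those of Gabpb1 in wild type 1, 2 and 3 and 1.30, 0.963 and 0.349 times in knockout 1, 2 and 3. In the wild-type libraries Gabpa counts exceeded those of its partner in every pool, while in knockout 2 and 3 they were the fewer. The log2 ratio was 1.80 ± 0.32 and -0.40 ± 1.00 (SD, n = 3 each), a difference of -2.20. Counts of Ppargc1a were 5.29, 3.50 and 4.65 times those of Ppargc1b in wild type 1, 2 and 3 and 1.88, 1.80 and 0.817 times in knockout 1, 2 and 3, a difference in log2 ratio of -1.65. For both pairs the groups did not overlap, with a two-sided exact permutation p = 0.1, again the lowest possible (adjusted over 4 ratios 0.133). These ratios compare libraries and not genes, because counts depend on transcript length.

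**Figure D2:**
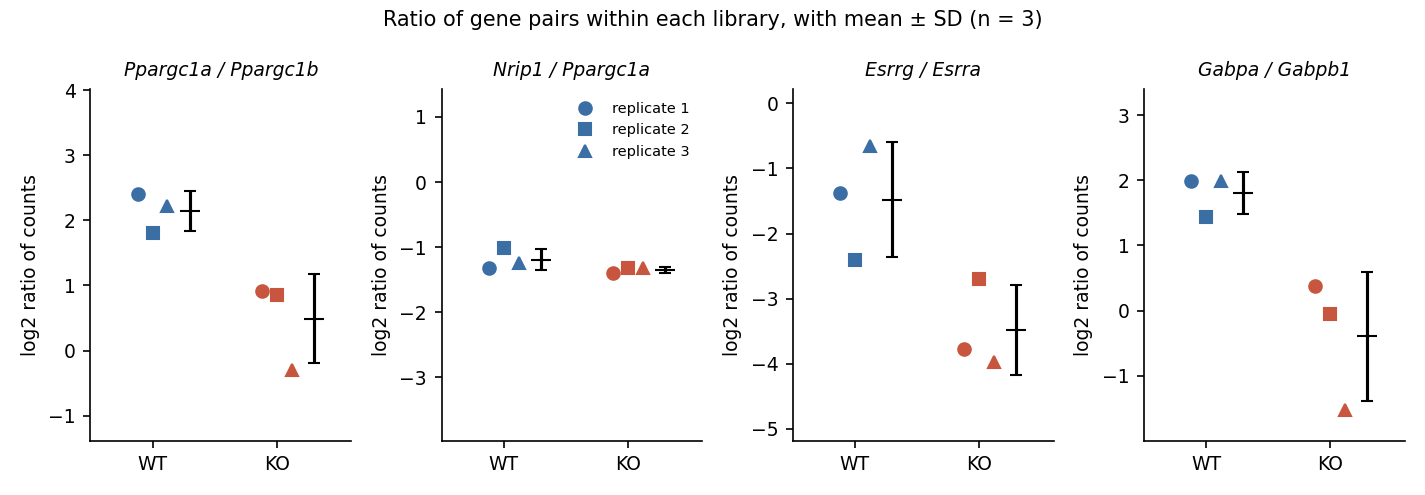
Log2 ratio of counts (0.5 added) for 4 gene pairs within each library, wild type (WT, blue) and knockout-labelled (KO, red), with mean ± SD in black; all 4 panels span the same number of log2 units. The ratio of Nrip1 to Ppargc1a differs by only -0.15 between groups, while that of Gabpa to Gabpb1 differs by -2.20.

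Transcript length moved with these results, while GC content was used only together with length, in the offsets. The longest annotated transcripts of the 4 lower genes ran from 4987 bases (Gabpa) to 7868 bases (Nrip1), against a median of 3273 bases for all tested genes. The median log2 fold change of all tested genes in their length deciles was -0.61 for Ppargc1a and Esrrg. It was -0.38 for Gabpa and -0.78 for Nrip1. Each of the 4 lay below the median of genes of similar length, but they were called lower in this same fit, which left little room for another outcome. In the same deciles 18.6%, 11.3% and 24.8% of genes were lower. Pprc1, at 5246 bases, shared the decile of Ppargc1a and Esrrg and had a log2 fold change of 0.35 (SE 0.42), from 12 to 34 counts per library. Gabpb1 and Nrf1, with transcripts of 4153 and 4042 bases, lay above their decile's median of -0.19.

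**Figure D3:**
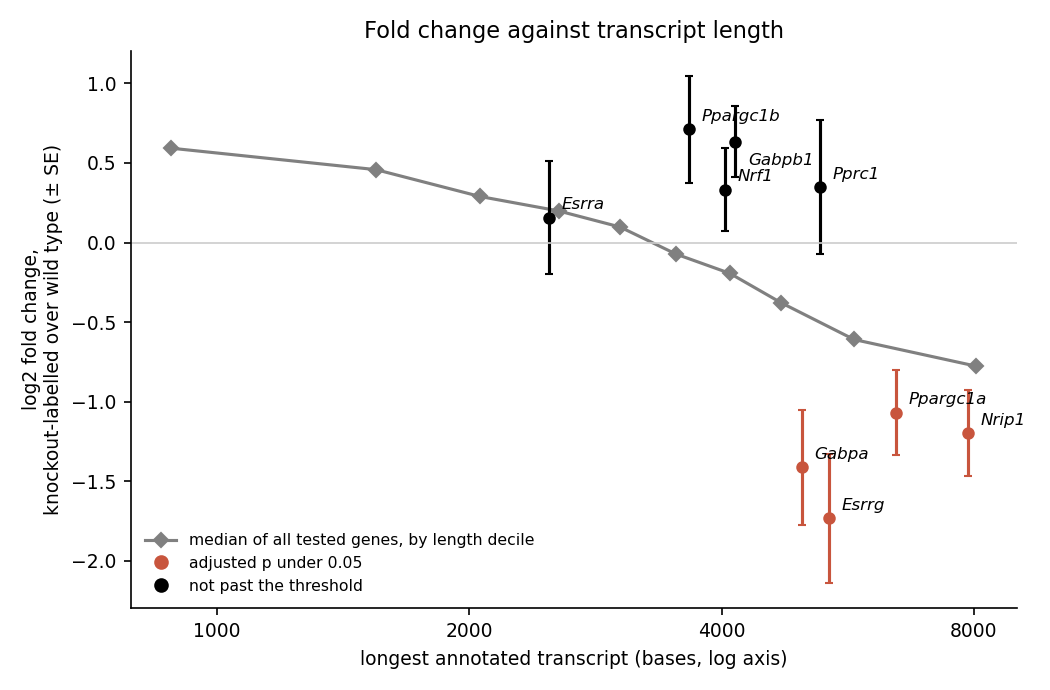
Log2 fold change of the 9 genes (± SE, red where adjusted p is under 0.05) against the length of the longest annotated transcript (log axis), with the median of all tested genes in each length decile in grey. Ppargc1a, Nrip1, Esrrg and Gabpa lie below the grey line, and Ppargc1b, Gabpb1, Nrf1 and Pprc1 lie above it.

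With offsets for the longest transcript's length and GC, 0 of the 9 genes passed (edgeR), where 0.00829% of all tested genes did, 1 gene that was higher. At an unadjusted p under 0.05, 4 of the 9 passed, against 23.1% of all tested genes. In that fit Ppargc1a moved to -0.17 (SE 0.21, adjusted p = 0.659) and Nrip1 to -0.33 (SE 0.21, adjusted p = 0.375). Esrrg stood at -1.05 (SE 0.33, adjusted p = 0.103) and Gabpa at -0.76 (SE 0.28, adjusted p = 0.150). Gabpb1 stood further above 0 than before, at 1.00 (SE 0.21, adjusted p = 0.0621), as did Nrf1, at 0.70 (SE 0.23, adjusted p = 0.119). Ppargc1b, Pprc1 and Esrra stood at 0.62, 0.60 and -0.02 (adjusted p = 0.260, 0.393 and 0.981).

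Levels with the length and GC trend taken out show which libraries carry these values. Ppargc1a then had 29.1, 23.7 and 28.1 CPM in wild type 1, 2 and 3 and 18.7, 26.0 and 27.1 CPM in knockout 1, 2 and 3, and the groups overlapped. Gabpa had 54.8, 53.7 and 62.6 CPM against 45.7, 35.7 and 19.3 CPM, and Gabpb1 had 16.3, 21.9 and 17.3 CPM against 34.7, 33.3 and 43.5 CPM, in the same order. Both subunits still had separate groups, in opposite directions. Esrrg and Nrip1 also stayed separate in the lower direction and Nrf1 became separate in the higher, so 3 of the 9 genes did not overlap in the lower direction and 2 in the higher, against 13.8% and 15% of all tested genes. The difference in log2 ratio was then -1.85 for Gabpa to Gabpb1 and -0.71 for Ppargc1a to Ppargc1b, the 2 pairs whose groups remained apart. For Esrrg to Esrra, whose groups had been apart as counted, it was -1.11 and the groups overlapped (two-sided exact permutation p = 0.2). For Nrip1 to Ppargc1a it was -0.16, with groups that overlapped in both cases.

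The offsets depend on which transcript is taken as the gene's length. With each gene's median transcript, 0 of the 9 genes passed in edgeR, against 1.85% of all tested genes (1.18% lower and 0.671% higher). At an unadjusted p under 0.05, 6 of the 9 passed, against 26.2%. Ppargc1a, Nrip1, Esrrg and Gabpa were then at -0.34, -0.79, -0.83 and -1.16 (adjusted p = 0.393, 0.0926, 0.135 and 0.0609), and Gabpb1 at 0.93 (adjusted p = 0.0508). The choice moved Pprc1 the most, from 0.60 to -0.09, and its median annotated transcript is 543 bases long. Nrip1 and Gabpa, with median transcripts of 1878 and 816 bases, came next.

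**Figure D4:**
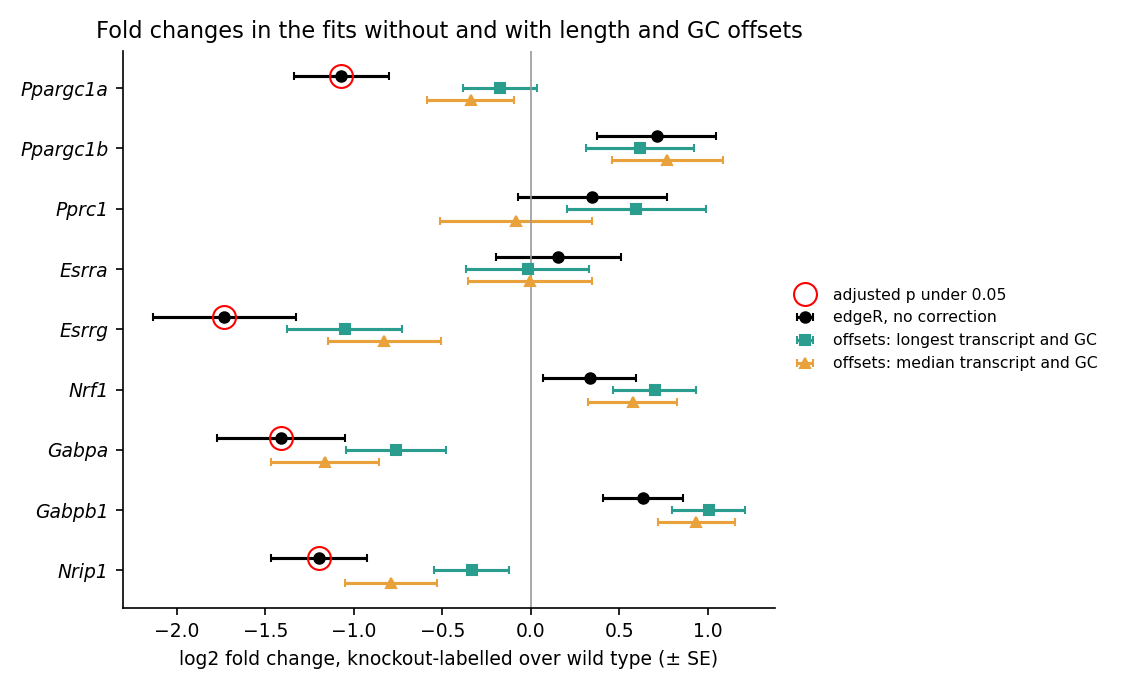
Log2 fold change (± SE) of each gene without length correction (black), with offsets for the longest transcript and GC (green squares) and with offsets for the median transcript and GC (orange triangles); red rings mark an adjusted p under 0.05. Ppargc1a moves from -1.07 to -0.17 with the longest transcript, whereas Gabpa and Gabpb1 stay on opposite sides of 0 in all 3 fits.

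Leaving out 1 library ended most of the 4 calls, while the 4 log2 fold changes stayed negative whichever library was left out. Without wild type 1, Ppargc1a, Esrrg, Gabpa and Nrip1 were at -0.91, -1.55, -1.39 and -1.10 (edgeR adjusted p = 0.185, 0.165, 0.169 and 0.154). Without knockout 3 they were at -1.05, -1.39, -1.08 and -1.18 (adjusted p = 0.118, 0.0814, 0.0758 and 0.0962). Without wild type 3 they were at -1.06, -1.72, -1.36 and -1.19 (adjusted p = 0.0837, 0.0550, 0.0705 and 0.0652). Without knockout 2, Esrrg passed (-2.10, adjusted p = 0.0483), and Ppargc1a, Gabpa and Nrip1 did not (-1.24, -1.51 and -1.38; adjusted p = 0.0609, 0.0723 and 0.0539). Without knockout 1, Ppargc1a alone did not pass (-0.96, adjusted p = 0.0551), and without wild type 2 all 4 passed.

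Markers of other tissue moved with single libraries or groups. The 10 skeletal muscle markers summed to 1226 CPM in wild type 3 and to between 32.0 and 107 CPM in the other 5 libraries, with Myh1 and Actn3 at 0 in knockout 1; muscle also expresses Ppargc1a, Esrra and Esrrg. Without wild type 3, Ppargc1a and Esrrg were at -1.06 and -1.72, against -1.07 and -1.73 with it, and Esrra turned from 0.16 to -0.14. The 5 red blood cell markers summed to 366 to 1378 CPM in wild type and 1210 to 3505 CPM in the knockout-labelled libraries, with 2 of 5 higher and none at 0. The 7 brown adipocyte markers summed to 4343 to 6990 and 7581 to 9455 CPM, with 1 higher (Cox7a1) and 1 lower (Dio2, the thyroid hormone activator, at -2.08, adjusted p = 0.0175), and none at 0. Of the other markers, 1 of 6 endothelial, 1 of 6 macrophage and 1 of 4 tested Schwann cell genes were lower. Of 5 mural genes 2 were higher (Acta2 and Tagln), while Rgs5, the most abundant, had -0.98 (edgeR adjusted p = 0.0770). The mural markers summed to 812 to 1263 CPM in wild type and 439 to 883 CPM in the knockout-labelled libraries. Among stromal and general adipocyte genes, 0 of 5 and 0 of 7 passed. Of all tested genes, 7.52% were lower and 1.63% higher. The part of these cell types in the results was not tested.

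Levels of different genes can be compared only per length of transcript, here as CPM per kilobase of the longest annotated transcript. In wild type Esrra was the highest at 17.8 ± 6.5, followed by Gabpa at 14.7 ± 2.1, whose range overlapped that of Esrra. Ppargc1a (5.74 ± 1.45) and Gabpb1 (5.05 ± 0.44) came next and overlapped each other, and both lay below Gabpa in every library. Esrrg (2.88 ± 0.81), Ppargc1b (2.24 ± 0.13), Nrip1 (2.03 ± 0.31) and Nrf1 (1.91 ± 0.27) followed, each overlapping its neighbour, and Pprc1 was the lowest at 0.247 ± 0.104 (SD, n = 3 throughout). In the knockout-labelled libraries Esrra again led at 19.9 ± 9.0. Gabpb1 (7.83 ± 0.57) then stood before Gabpa (5.53 ± 2.85) and Ppargc1b (3.68 ± 1.78) before Ppargc1a (2.74 ± 0.49), but the ranges of each pair overlapped. Nrf1 (2.41 ± 0.24), Nrip1 (0.883 ± 0.179), Esrrg (0.862 ± 0.447) and Pprc1 (0.318 ± 0.068) came after them. Scaled by the median annotated transcript, the levels were higher and the order changed, with Gabpa (90.1) ahead of Esrra (61.0) in wild type. On that scale the knockout-labelled libraries kept the wild-type order of both pairs. Gabpa (33.8) stood before Gabpb1 (16.3) and Ppargc1a (6.42) before Ppargc1b (4.04).

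Genes with the most similar pattern over the 6 libraries were sought for Ppargc1a and Nrip1 by the Pearson correlation of log2 CPM, as a description over libraries that share depth, scaling and the length trend. Among 6071 named genes of at least 10 CPM, Sfmbt1 (r = 0.999), Dnajc21 (0.998) and Myo6 (0.998) were closest to Ppargc1a, and 603 genes reached 0.9. For Nrip1 they were Zbtb43 (0.998), Celf2 (0.997) and Secisbp2l (0.996), and 526 genes reached 0.9. Over the same libraries the correlation of Nrip1 with Ppargc1a was 0.983 and that of Esrrg with Gabpa 0.967, while Gabpb1 had -0.942 with Ppargc1a and -0.915 with Gabpa.

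The wider pathway was read from 6 lists holding 106 genes, of which 99 were tested: 14 were lower and 0 higher, against 7.52% lower and 1.63% higher among all tested genes. The 14 stood in the 3 lists of regulators. The median longest transcripts of partner factors, coregulators and upstream regulators were 5401, 4655.5 and 3956.5 bases. Those of the 3 target lists (NRF1 and GA-binding protein, estrogen-related receptors, Nrip1) were 2449, 2897.5 and 2265.5 bases. Over all tested genes, lower calls rose from 0.168% in the shortest length decile to 24.8% in the longest. The difference between regulator and target lists was not tested. Of 19 tested other partner factors of PGC-1, 5 were lower (7.52% of all tested genes), 0 were higher (1.63%) and the median log2 fold change was -0.39, against 0.03 for all tested genes. The thyroid hormone receptor Thrb stood at 20.9 ± 8.3 and fell to 6.05 ± 0.68 CPM (SD, n = 3 each), a log2 value of -1.78 (SE 0.32, edgeR adjusted p = 0.0168). The orphan receptor Rora (-1.90, adjusted p = 0.0168) and the glucocorticoid receptor Nr3c1 (-1.36, adjusted p = 0.0195) were lower too. The median longest transcript of this list was 5401 bases, and with the offsets its median was -0.05 and 0 genes passed (6 lower and 0 higher at an unadjusted p under 0.05, a threshold that 23.1% of all tested genes passed in either direction), with Thrb at -1.03, Rora at -0.77 and Nr3c1 at -0.53.

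Of 28 tested coregulators and modifying enzymes, 6 were lower and 0 higher, against 7.52% and 1.63% of all tested genes, with a median of -0.14. They were led by Prkaa2, a catalytic subunit of the AMP-activated kinase (-1.76, adjusted p = 0.0265), the retinoblastoma protein gene Rb1 (-1.08, adjusted p = 0.0265) and the kinase gene Gsk3b (-1.22, adjusted p = 0.0281). Of 14 tested regulators upstream of Ppargc1a, 3 were lower and 0 higher, against the same 7.52% and 1.63%, with a median of -0.29: the transcription factors Mef2a (-1.32, adjusted p = 0.0190), Creb1 (-1.28, adjusted p = 0.0290) and Atf2 (-0.93, adjusted p = 0.0346). With the offsets 0 genes of either list passed, and 6 and 2 were lower and 5 and 1 higher at an unadjusted p under 0.05, against 23.1% of all tested genes in either direction. Prkaa2, Rb1 and Gsk3b were then at -0.77, -0.41 and -0.45, and Mef2a, Creb1 and Atf2 at -0.57, -0.20 and -0.31. For these 3 lists DESeq2 and limma-voom gave the same counts, lower and higher, as edgeR.

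Genes on which these factors act gave no calls in edgeR. At an unadjusted p under 0.05, the threshold of the counts that follow, 30.8% of all tested genes passed in either direction. Of 19 tested targets of NRF1 and GA-binding protein, 0 passed (5 higher and 2 lower at an unadjusted p under 0.05; DESeq2 2 higher, limma-voom 0), and the median was 0.30. The import receptor Tomm70a had -0.68 (adjusted p = 0.0805), and the cytochrome oxidase subunits Cox5b and Cox4i1 had 0.85 each (adjusted p = 0.0847 and 0.0875). The DESeq2 calls were Cox5b and Cox4i1. Of 18 tested targets of the estrogen-related receptors, 0 passed (3 higher and 1 lower at an unadjusted p under 0.05; DESeq2 and limma-voom 0), with a median of 0.02, and the citric acid cycle enzyme Mdh2 had 0.61, the pyruvate dehydrogenase kinase Pdk4 -0.64 and the superoxide dismutase Sod2 0.54 (adjusted p = 0.104, 0.125 and 0.146). The creatine kinase Ckmt2, a muscle-type gene picked out for its low value on the plot of the lists, had 29.7 CPM in wild type 3 and 0.442 to 3.45 CPM in the other 5 libraries (log2 difference -2.74, adjusted p = 0.286), and wild type 3 was also the library with the most skeletal muscle markers. Of 6 genes that Nrip1 is known to repress, 0 passed (2 higher and 1 lower at an unadjusted p under 0.05; DESeq2 and limma-voom 0), with a median of 0.45. Ucp1 went from 2664 ± 545 to 4196 ± 588 CPM (SD, n = 3 each; log2 fold change 0.66, SE 0.26, adjusted p = 0.113), and the fatty acid binding protein Fabp3 had 0.76 (adjusted p = 0.121). With the offsets the medians of the 3 target lists were 0.18, 0.04 and 0.15, and 0 genes passed (4, 2 and 1 higher and 1, 1 and 0 lower at an unadjusted p under 0.05, against 23.1% of all tested genes). Sod2 then had the largest of the values named here, 1.30 (adjusted p = 0.0621). Tomm70a and Cox4i1 were each at 0.16, Cox5b at 0.39, Mdh2 at 0.21, Pdk4 at -0.39, Ucp1 at 0.40 and Fabp3 at 0.13.

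**Figure D5:**
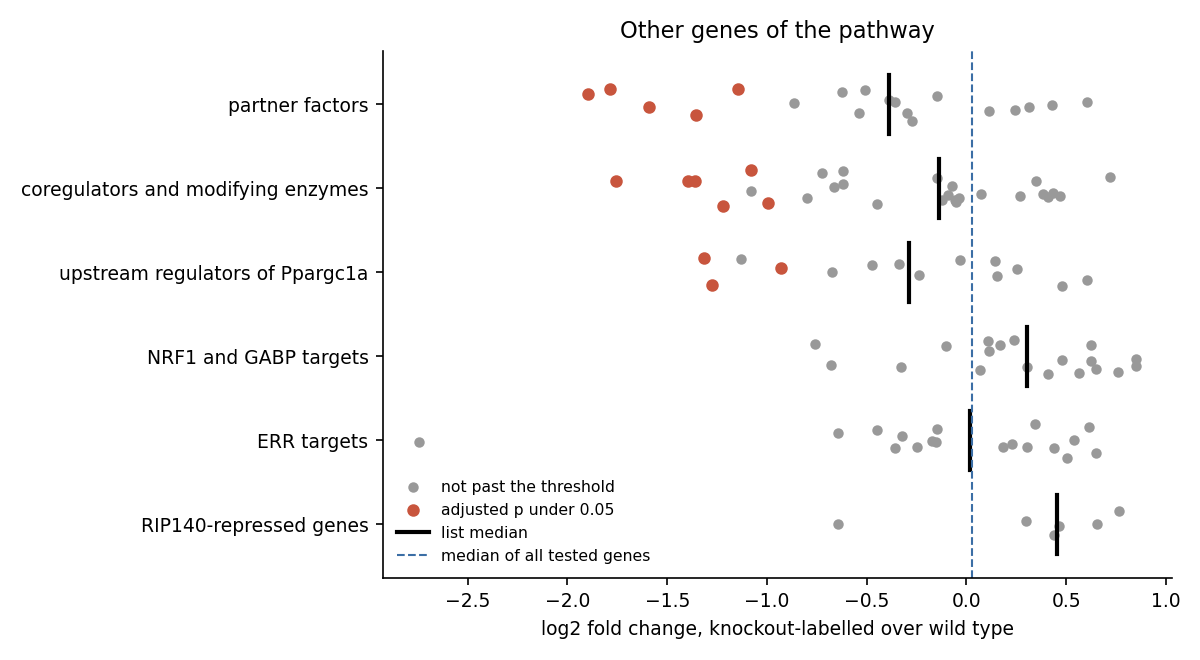
Log2 fold change of the tested genes of 6 pathway lists, each point a gene (red where adjusted p is under 0.05), with the list median as a black bar and the median of all tested genes as a dashed line. Red points occur in the 3 lists of regulators, all on the lower side, and in none of the 3 target lists, whose medians are 0.30, 0.02 and 0.45. The regulator lists hold longer transcripts (medians of 5401, 4655.5 and 3956.5 bases) than the target lists (2449, 2897.5 and 2265.5 bases).

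Genes were also grouped by the letters their promoter windows hold, as a description with no test. All 9066 tested genes with a window had a median log2 fold change of 0.01, with 7.79% called lower and 1.53% called higher. The 1093 genes with the NRF1 letters had a median of 0.01, with 7.69% lower and 0.915% higher. The 853 with the ETS letters had 0.10, with 6.33% lower and 1.29% higher. In counts, these were 84 lower and 10 higher genes with the NRF1 letters and 54 lower and 11 higher genes with the ETS letters. The lower share of the NRF1 set was nearly that of all 9066, and no difference was tested. The 75 genes with the estrogen-related receptor letters had the highest median, 0.17, with 5 genes (6.67%) lower and 4 (5.33%) higher. The 322 with the full cAMP response element had 0.01, with 6.52% lower and 12 genes (3.73%) higher. The 3259 with its core, the letters in the Ppargc1a window, had 0.00247, with 8.22% lower and 1.29% higher, and the 498 with the YY1 letters, as in the Gabpa window, had 0.10, with 8.03% lower and 1% higher. The sets differed in length: the median transcript was 2724 bases for the receptor letters and 3123 for the ETS letters, against 3357 for all 9066. With the offsets the medians were 0.105 (receptor letters), 0.04 (ETS) and 0.03 (NRF1), against 0.03 for all 9066. They were 0.07 for the full cAMP response element, 0.03 for its core and 0.06 for the YY1 letters. Among the 17 listed targets of NRF1 and GA-binding protein with a window, 5 held the NRF1 letters (Polrmt, Cox6a1, Sdhd, Tomm20 and Alas1). The ETS letters were in 4 (Tfam, Polg, Twnk and Tomm70a).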

How the data were processed

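RNA was measured in 6 libraries, 3 per group. The authors deposited raw counts per Ensembl gene, 1 file per library, without normalization. Per the submitters' processing notes, STAR 2.5.4b and mm9 were used; how reads were counted, with which strand setting and annotation release, is not given in the sources used here. Library totals ranged from 10576800 to 14239307 counts.

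Symbols, transcript lengths and GC content came by Ensembl identifier from GENCODE M21 on GRCm38 (32897 of 37620 identifiers; the rest held 0.178% of counts). Because the build differs from mm9, the promoter coordinates printed belong to GRCm38.p6 only. Genes were filtered with filterByExpr (minimum count 10, minimum total 15), scaled by TMM and compared with the robust quasi-likelihood F test of edgeR 4.0.16 (newer method) in R 4.3.3, two-sided, with Benjamini-Hochberg adjustment over all 12068 genes and a threshold of 0.05. Offsets were smooth trends on log2 length and GC per library (mgcv 1.9.3, basis 6, prior count 2). Alternatives used DESeq2 1.42.0 and limma 3.58.1, other scalings, filters and thresholds, a replicate block and the omission of each library; edgeR's legacy method was added after seeing the data. Near-identical copies were sought with BLAST 2.17.0 (at least 90% identity over 100 bases). The scripts were tested on simulated data.

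The 9 genes, the lists and the tests were chosen with earlier results of these data known. Named genes are the 9, the 3 with the smallest p in each list, the 3 closest patterns of Ppargc1a and Nrip1, Phospho1, Ucp1, Dio2 and markers; Atp5j and Ckmt2 were added after their values were seen. Genes named for motif matches and DESeq2 calls are counts of 5 or fewer, named after their values were seen. Prmt1 and Tomm20 matched no row and were not analysed here for expression.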

Additional observations from a re-analysis of the deposited data

How the results depend on the processing

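The count of lower genes among the 9 was 4 under DESeq2, RLE, upper-quartile and total-count scaling, limma-voom, the legacy method, both other filters and the removal of mitochondrial genome genes. It was 0 with each length and GC offset, with the replicate block plus offsets and at an adjusted p of 0.01, and ranged from 0 to 4 with each library left out. Lower partner factors, coregulators and upstream regulators (5, 6 and 3) were 0, 0 and 0 with offsets on the longest transcript, with the replicate block plus offsets and at 0.01, and 1, 0 and 0 with the median transcript; leaving out libraries gave 0 to 5, 0 to 7 and 0 to 3. Higher genes, 0 in every list, ranged from 0 to 5 (NRF1 and GABP targets), 0 to 2 (estrogen-related receptor targets), 0 to 1 (genes repressed by Nrip1) and 0 to 1 (coregulators) without single libraries, and were 2 by DESeq2 for the first. Over all genes, 197 higher and 908 lower became 29 and 1389 with total counts (median log2 fold change -0.23), 1 and 0 with offsets (2787 at an unadjusted p under 0.05), 81 and 142 with the median transcript, 0 and 0 with the replicate block plus offsets (2474 at an unadjusted p under 0.05) and 1 and 0 at 0.01. DESeq2 called 493 higher. Without single libraries they ranged from 0 to 688 and from 0 to 1383, lowest without wild type 1. The cause was not tested.

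The log2 fold change of Esrra turned to -0.0902 with total counts, to -0.0181, -0.0065 and -0.0423 with the offsets on the longest transcript, on the median transcript and with the block, and ranged from -0.26 to 0.38 without single libraries. Pprc1 turned to -0.0851 with the median transcript, and Tomm70a to 0.16, 0.26 and 0.17 in the 3 offset fits.

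Same-numbered libraries did not pair: their deviations from group means correlated at 0.145, -0.534 and 0.032. With the replicate block, 223 genes were higher and 976 lower, and the 4 genes kept their calls (Ppargc1a -1.05, Esrrg -1.81, Gabpa -1.54, Nrip1 -1.20; adjusted p = 0.0378, 0.00496, 0.00508 and 0.0287). Pprc1 had 12 to 34 counts per library, the fewest of the 9.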
